A study of Mus musculus with 2 samples.

Results

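The genes of the cartilage collagens II, IX, X, XI and XXVII were examined in single cells of the mouse knee. The members were given by name and are the 8 genes Col2a1, Col9a1, Col9a2, Col9a3, Col10a1, Col11a1, Col11a2 and Col27a1, out of 32245 gene columns, and all 8 were detected in both libraries. Collagens are proteins of 3 chains wound into a helix. Collagen II, made of Col2a1 chains only, forms the bulk of the cartilage fibril. Collagen XI, assembled from the products of Col11a1, Col11a2 and Col2a1, sits in the core of that fibril and limits its width, and collagen IX, with a single chain each from Col9a1, Col9a2 and Col9a3, decorates its surface. Collagen X is the network collagen of hypertrophic chondrocytes, the enlarged cells that precede bone, and collagen XXVII is a fibrillar collagen of the growth plate.

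Cells came from the knee joints of female mice at 1 month of age, with 1 library per genotype. The control library was Stat3fl/fl, which has loxP sites in its Stat3 alleles and lacks Cre. The mutant library was Acan-Cre+/Cre;Stat3fl/fl, which carries the same floxed alleles and Cre inserted in the aggrecan gene Acan. By the study's methods this Cre is tamoxifen-inducible and was activated in the first days after birth, so deletion is limited to cells that used Acan then and their progeny, and 1 copy of Acan itself carries the insertion. Mice were pooled for a library, and cells were sorted as live cells negative for endothelial and blood surface markers. The spread between animals was not measured, no difference between the genotypes below has a replicate check, and no test was made.

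The control library held 4903 cells and the mutant library 1340, with medians of 4344 and 3743 estimated UMIs (unique molecular identifiers, each standing for 1 captured mRNA molecule), and 2 cell barcodes occurred in both. The authors marked 501 control and 332 mutant cells as selected chondrocytes. All of the marked cells had Sox9 and Col2a1 above 0, so detection of Col2a1 in them is fixed by the choice. Of 1013 control and 335 mutant cells with both genes above 0, 512 and 3 were left unmarked, and each of those had a globin value above 0. The marked cells had a median depth of 5876 UMIs (control) and 8595 UMIs (mutant). The marked cells were graded with 8 chondrocyte markers that include no collagen gene. A cell was called chondrocyte-like when at least 3 of them were above 0 and no other class scored as high. Sox9 and Acan are among the 8. Sox9 is above 0 in every marked cell by selection, so the rule is not independent of the mark, and Acan carries the Cre insertion in the mutant. All 8 markers were detected in the marked cells of both libraries. By this rule 467 of the marked control cells (93.2%, 95% exact interval 90.6 to 95.3) but 263 of the marked mutant cells (79.2%, 74.4 to 83.5) were chondrocyte-like. The other 34 control and 69 mutant cells included 2 and 21 osteoblast-like, 4 and 10 marrow stromal-like and 16 and 25 cells without a class. All 8 osteoblast markers were detected in the marked cells, at a summed level of 1088 CPM (counts per 1000000 UMIs) for the control and 4749 CPM for the mutant, and 6 (control) and 3 (mutant) of the 7 erythroid markers were detected. More than 5% mitochondrial counts were found in 20 marked control cells (3.99%) and 67 marked mutant cells (20.2%), although the study's methods describe a filter at this limit. The study's stated cell numbers are a little above those found here, and at which processing step the tables were exported is not known. Stat3, the targeted gene, was at 142 CPM in marked control cells and 103 CPM in marked mutant cells, and 3′ counting cannot tell the deleted from the intact transcript. Intervals on shares of cells cover counting error only.

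The first question was how much of each collagen the marked cells carried. With 3′ counting a molecule gives 1 count whatever its length, so levels of different genes were compared without division by length. Col2a1 was the highest of all genes in control cells, at 44125 CPM, and ranked 2 in mutant cells, at 31546 CPM. The 8 genes together summed to 70217 CPM in control cells and 49845 CPM in mutant cells. Col11a1 came next among the members, at 11074 and 6774 CPM, and the 3 collagen IX genes and Col11a2 lay close together. Col9a1 was at 3763 CPM (control) and 2456 CPM (mutant), Col9a2 at 3235 and 2151 CPM, Col9a3 at 3469 and 3576 CPM, and Col11a2 at 3374 and 2158 CPM. Col27a1 was lower, at 1086 and 710.0 CPM. Col10a1 was the lowest member in both libraries, at 92.1 CPM (control) and 475 CPM (mutant), which ranked it 1630 and 272 among all genes.

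Relative to the control, 6 of the 8 genes were lower and 2 were higher in mutant marked cells. On the scale of log2((mutant CPM + 1)/(control CPM + 1)), Col11a1 had the lowest ratio at -0.71, followed by Col11a2 at -0.64, Col9a1 at -0.62, Col27a1 at -0.61, Col9a2 at -0.59 and Col2a1 at -0.48. Col9a3 differed from its partners, with a ratio of 0.04. The direction of so small a ratio depended on the processing, and it ranged from -0.13 to 0.41 over 12 alternatives. Col10a1 had a ratio of 2.35, which was -0.88 without the 3 highest cells of each library and 1.16 without cells above 5% mitochondrial counts. The median of the 8 was -0.60, beside a median of -0.18 over the 7579 genes with a mean of at least 10 CPM over both libraries, of which 62.7% were below 0. A decrease of at least 1.5-fold was found for 5 members (the 2 collagen XI genes, Col9a1, Col9a2 and Col27a1), where 21.3% of all genes passed that size. An increase of at least 1.5-fold was found for Col10a1 and no other member, where 10% of genes passed. At 2-fold no member was lower, against 5.59% of genes, and Col10a1 was higher, against 3.76% of genes. Scaling by the median of ratios, in place of the library total, raised all ratios by 0.16 and brought the median of all genes to -0.01. The same 6 members were then still below 0, with a member median of -0.44, but 0 of them passed a 1.5-fold decrease, where 13.5% of genes did.

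Marked cells that were not chondrocyte-like, more frequent in the mutant library, carried little of most members. In those 69 mutant cells Col2a1 was at 971 CPM and the collagen IX genes were between 13.4 and 20.5 CPM, while Col11a1 was at 2543 CPM. Among cells both marked and chondrocyte-like, a set chosen after the data were seen, the same 6 genes were lower by smaller amounts, with ratios from -0.63 for Col11a1 to -0.35 for Col2a1, and Col9a3 was at 3636 CPM (control) and 4110 CPM (mutant), a ratio of 0.18. There 1 of the 8 members, Col11a1, passed a 1.5-fold decrease, where 22.9% of 7436 genes did, and 1, Col10a1, passed a 1.5-fold increase, where 9.97% did.

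**Figure D1:**
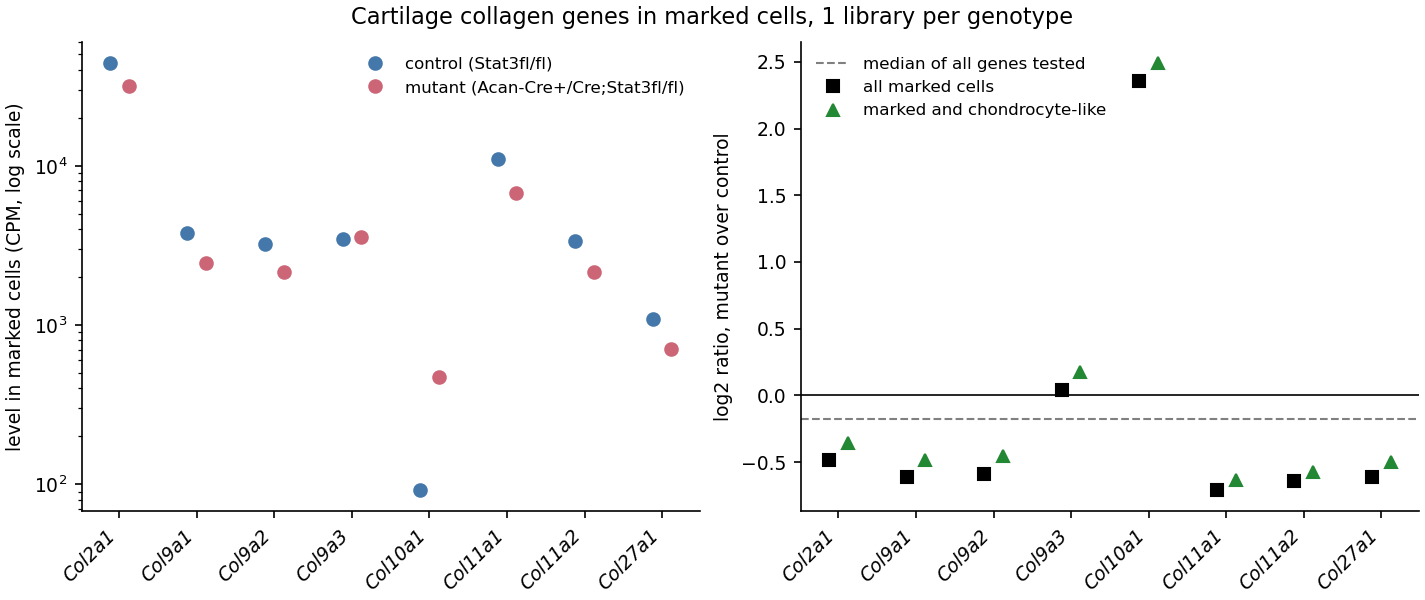
Left, level of each gene in marked cells (CPM, log axis), 1 point per library. Right, log2 ratio of mutant over control in all marked cells (squares) and in marked cells that were chondrocyte-like (triangles), with the median of all genes tested at -0.18 as a dashed line; Col9a3 and Col10a1 are the members above 0.

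Detection was also lower in the mutant library. In marked control cells, Col11a1 was above 0 in 98.8% of cells, Col11a2 in 94.4%, Col9a1 in 90.8%, Col27a1 in 90.2%, Col9a2 in 89.8% and Col9a3 in 88.6%. In marked mutant cells the shares were 91.3%, 80.4%, 78.0%, 77.1%, 76.5% and 74.4% in the same order, each with an interval below that of the control. Within marked chondrocyte-like cells the gaps were smaller. Shares of cells above 0 were 96.1% (control) and 95.4% (mutant) for Col9a1, 94.2% and 92.8% for Col9a2, 93.4% and 91.6% for Col9a3, 99.8% and 98.9% for Col11a1, 97.4% and 93.5% for Col11a2, and 94.2% and 90.9% for Col27a1. The spread between single cells was wide. Col2a1 had a median of 255 UMIs per marked control cell, with quartiles of 114 and 398, and of 124 per marked mutant cell, with quartiles of 10.3 and 508. Fewer than 2 Col2a1 UMIs were found in 26 marked control cells (5.19%, 3.42 to 7.51) and 58 marked mutant cells (17.5%, 13.5 to 22.0).

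The second question was the proportion of chains within a collagen. Since collagen IX is built with a single chain of each kind, its genes can be read as shares of their sum. In marked control cells Col9a1 supplied 36.0% of collagen IX UMIs, Col9a2 30.9% and Col9a3 33.1%. In marked mutant cells Col9a1 supplied 30.0%, Col9a2 26.3% and Col9a3 43.7%. The ratio of Col9a3 to Col9a1 was thus 0.922 (control) and 1.46 (mutant), and that of Col9a3 to Col9a2 was 1.07 and 1.66, whereas the ratio of Col9a1 to Col9a2 was 1.16 and 1.14. The Col9a3 share was 10.6 percentage points higher in the mutant library, and 9.43 to 10.9 points higher under the 9 alternative choices of cells, weighting and depth.

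The Col9a3 share was higher in the mutant library in each of 4 subsets of marked cells, grouped by at least 2 of a fixed set of subtype markers. A cell could belong to more than one subset, so these values are not independent. In articular-type cells, with markers such as Prg4 and Cytl1, Col9a3 supplied 30.3% of collagen IX in 61 control cells and 39.8% in 95 mutant cells. In growth cartilage-type cells, with markers such as Matn1 and Epyc, the share was 33.3% in 419 control cells and 43.7% in 237 mutant cells. Prehypertrophic-type cells, by at least 2 of Ihh, Pth1r, Panx3 and Mef2c, gave 34.2% in 134 control cells and 45.9% in 94 mutant cells. Of these markers, Ihh was low in marked cells, at 8.70 CPM (control) and 9.76 CPM (mutant). Mineralizing-type cells, with markers such as Ibsp and Spp1, gave 34.2% and 42.3% in 40 and 61 cells. In marked cells that were not chondrocyte-like, where the collagen IX genes were low, the share went the other way, from 37.4% in 34 control cells to 34.9% in 69 mutant cells. Chondrocyte-like cells without the authors' mark, which the ratios above did not use, gave 32.2% in 628 control cells and 39.8% in 57 mutant cells. Of those control cells 50 had no globin value, and in them the share was 32.4%, against 39.9% in 56 such mutant cells. Among the 57 mutant cells, the 3 highest cells of each gene held 36.3% (Col9a1), 40.3% (Col9a2) and 39.2% (Col9a3) of its UMIs. Only 16 of the 57 had at least 20 collagen IX UMIs.

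**Figure D2:**
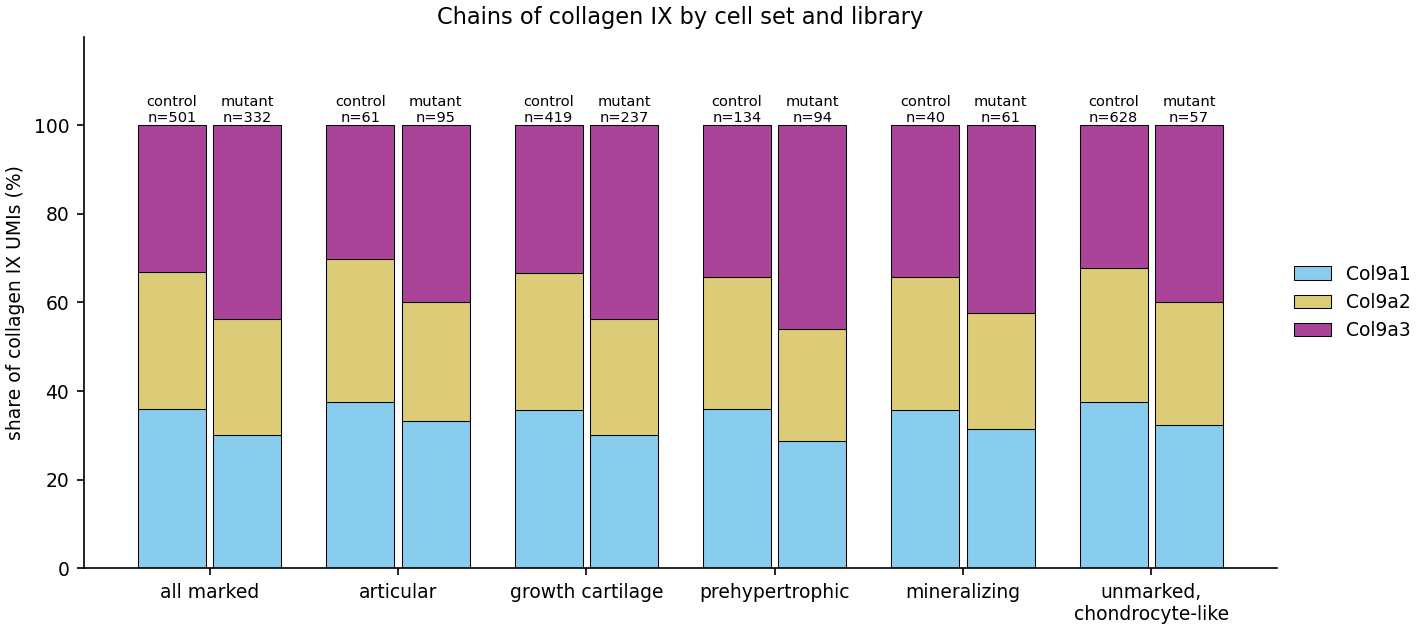
Share of Col9a1, Col9a2 and Col9a3 in the collagen IX UMIs (%, stacked) of each cell set, 1 bar per library with the number of cells above it. The Col9a3 part is larger in the mutant bar of each pair, for example 45.9% against 34.2% in prehypertrophic-type cells and 39.8% against 32.2% in unmarked chondrocyte-like cells.

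Single cells showed the same. Among marked cells with at least 20 collagen IX UMIs, the median Col9a3 share was 33.3% (quartiles 28.7 and 36.9) in 370 control cells and 42.1% (35.6 and 47.7) in 186 mutant cells, so the ranges between quartiles overlapped only from 35.6 to 36.9%. Col9a3 was the most abundant of the 3 chains in 103 control cells (27.8%, 23.3 to 32.7) and in 122 mutant cells (65.6%, 58.3 to 72.4). Col9a1 was the most abundant in 172 control cells (46.5%) and 47 mutant cells (25.3%). Cells of 1 library share their animals and processing, so these counts describe the libraries and are not replicates. Col9a3 lies on chromosome 2 from 180597790 to 180622189 (GRCm38, Gencode M21), and its last 234 bases overlap Tcfl5 on the opposite strand. Tcfl5 was at 8.60 CPM in control and 9.44 CPM in mutant marked cells. Whether the counting used strand is not given in the sources used here, and the part of Tcfl5 in the Col9a3 share was not tested.

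**Figure D3:**
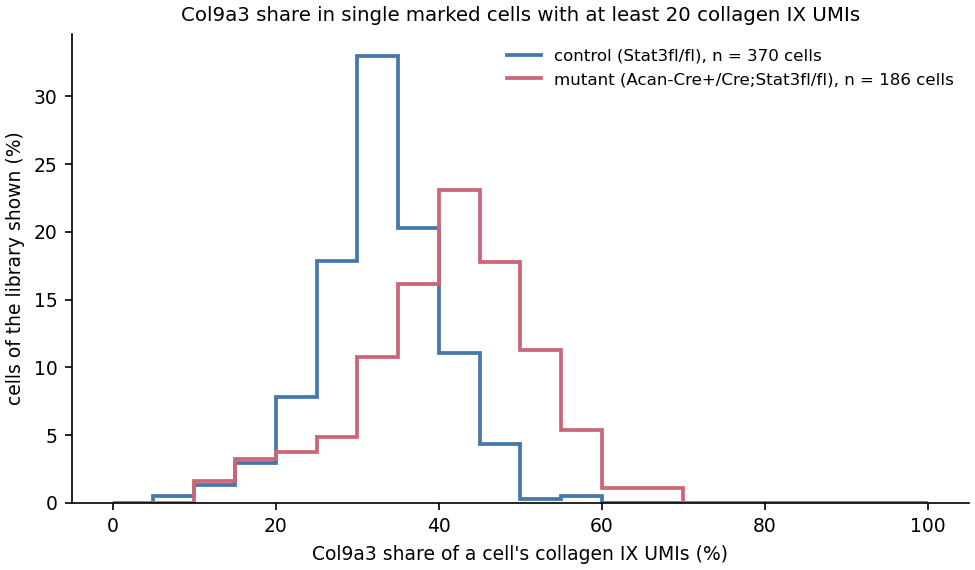
Distribution over single marked cells of the Col9a3 share of collagen IX UMIs (%, bins of 5 points), as the percent of the cells of each library. The control peak lies at 30 to 35% and holds 33.0% of cells, and the mutant peak lies at 40 to 45% and holds 23.1%.

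The proportions of collagen XI differed less. Col11a1 supplied 76.6% of the UMIs of Col11a1 and Col11a2 (control) and 75.8% (mutant), a ratio of Col11a1 to Col11a2 of 3.28 and 3.14. The difference of -0.81 points ranged from -1.46 to 0.13 over 9 alternatives. By subset the share was 79.9% and 78.0% in articular-type, 76.5% and 75.6% in growth cartilage-type, 77.4% and 75.8% in prehypertrophic-type and 78.4% and 76.2% in mineralizing-type cells. Col11a1 was the more abundant of the pair in 420 of 423 control cells and 226 of 227 mutant cells with at least 20 UMIs of both together. Col2a1 outnumbered the sum of the collagen IX genes by 4.22-fold (control) and 3.86-fold (mutant), and that of the collagen XI pair by 3.05-fold and 3.53-fold. The first of these ratios also differed between subsets: it was 5.07 and 5.23 in articular-type cells, 3.70 and 3.33 in prehypertrophic-type cells and 5.16 and 3.88 in mineralizing-type cells (control and mutant). Summed over the 8 genes, articular-type cells carried 34463 CPM (control) and 30737 CPM (mutant), and prehypertrophic-type cells 81219 and 56834 CPM.

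Across marked cells the members varied together. The gene most like each member, by the lower of its Pearson correlations in the 2 libraries over 3365 widely detected genes, was another member in 6 of the 7 cases computed. Col2a1 was most like Col9a2 (r = 0.80 over 501 control cells and 0.82 over 332 mutant cells), Col9a3 was most like Col9a2 (0.79 and 0.85), and Col11a1 was most like Col11a2 (0.63 and 0.75). Col27a1 was most like Cnmd (0.67 and 0.66), which encodes chondromodulin, and next like Acan (0.65 and 0.65). Sox9, the transcription factor required for cartilage collagen expression, correlated weakly with Col2a1 within marked cells (0.10 and 0.35). Marked cells were chosen with both genes above 0, so cells that lack either are left out and their association over all cells cannot be read from this value. These values are descriptions of cells that share a library and differ in depth. The cells include the 34 control and 69 mutant marked cells that were not chondrocyte-like, in which most members were low. Correlations without those cells were not computed. Col10a1 was in too few cells for this measure.

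On GRCm38 (Gencode M21) Col2a1 is transcribed from the minus strand of chromosome 15 (97975602 to 98004695) and the other members from the plus strand. They are Col9a1 on chromosome 1 from 24177610 to 24252684, Col9a2 on chromosome 4 from 121039385 to 121055322, Col27a1 on chromosome 4 from 63214004 to 63334991, Col11a1 on chromosome 3 from 114030540 to 114220718 and Col11a2 on chromosome 17 from 34039437 to 34066685, besides Col9a3 on chromosome 2 and Col10a1 on chromosome 10. To set Col10a1, which few cells carried, beside members that most marked cells carried, the 250 bases before the start site are shown for the members whose window holds no transcribed base of the member itself, as RefSeq gives them on GRCm38.p6. Promoters were matched for 6 of the 8 genes; Col2a1 and Col9a3 were not matched. Capitals mark a SOX core with the letters ACAAAG, the TATA box with the letters TATAAA and the GC box with the letters GGGCGG, each on either strand. A shorter SOX core, ACAAT, and the RUNX core, TGTGGT, were also searched for.
Col9a1, chr1:24177360-24177609, plus strand: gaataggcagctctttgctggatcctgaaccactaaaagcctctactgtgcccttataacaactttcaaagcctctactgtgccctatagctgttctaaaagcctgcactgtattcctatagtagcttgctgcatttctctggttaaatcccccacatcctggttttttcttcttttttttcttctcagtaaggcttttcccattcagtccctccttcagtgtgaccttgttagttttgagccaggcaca
Col11a1, chr3:114030290-114030539, plus strand: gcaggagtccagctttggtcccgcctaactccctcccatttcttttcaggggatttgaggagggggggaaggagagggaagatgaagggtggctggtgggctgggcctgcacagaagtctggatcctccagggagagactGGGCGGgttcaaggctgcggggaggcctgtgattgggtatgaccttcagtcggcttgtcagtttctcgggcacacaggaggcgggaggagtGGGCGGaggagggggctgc
Col11a2, chr17:34038888-34039137, plus strand: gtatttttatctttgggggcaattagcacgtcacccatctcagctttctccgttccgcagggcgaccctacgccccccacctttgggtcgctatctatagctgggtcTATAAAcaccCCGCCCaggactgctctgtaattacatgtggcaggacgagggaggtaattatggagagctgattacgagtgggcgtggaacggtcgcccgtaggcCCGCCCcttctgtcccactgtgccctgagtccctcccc
Col10a1, chr10:34389731-34389980, plus strand: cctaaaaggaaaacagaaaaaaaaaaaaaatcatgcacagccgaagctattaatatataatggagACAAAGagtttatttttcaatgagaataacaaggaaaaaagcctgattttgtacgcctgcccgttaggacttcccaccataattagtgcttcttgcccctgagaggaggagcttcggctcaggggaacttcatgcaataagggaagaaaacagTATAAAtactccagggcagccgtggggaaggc

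Of the matched members, only Col10a1 held ACAAAG, which 16.5% of 32851 promoters of this length hold. The TATA box letters were in Col10a1 and Col11a2, and in 12.4% of all promoters. Those of the GC box were in 4 of the 6, and in 32.7% of all promoters. Neither the shorter SOX core, present in 27.7% of all promoters, nor the RUNX core, present in 14.0%, was found in these windows. The GC content was 41.6% for Col10a1 and 43.6% for the Col9a1 window shown, against 62.4% for Col11a1, 57.6% for Col11a2 and a median of 52.4% over all promoters. Of the windows not shown, another of Col9a1, inside the gene, had 56.0%, that of Col9a2 60.4% and that of Col27a1 59.6%.

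The third question was which other cells carried these genes. Classes were gated among unmarked cells by at least 3 of their fixed markers, and free RNA was read from erythroid-like cells, which should lack cartilage collagens. In 1520 control erythroid-like cells, at a median of 6092 UMIs, Col2a1 was above 0 in 4.21%, Col11a1 in 2.04%, Col10a1 in 0.987% and each collagen IX gene in 0.329 to 0.789%. The mutant library held 11 such cells, so fibroblast-like cells were read as well: there the Col2a1 share was 16.5% in 400 control cells, at a median of 3709 UMIs, and 13.4% in 186 mutant cells, at 6785 UMIs.

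In osteoblast-like and tenocyte-like cells of both libraries, Col11a1 was detected more often than the other members. It was above 0 in 171 of 187 control osteoblast-like cells (91.4%, 86.5 to 95.0), at 3606 CPM and a median depth of 4459 UMIs, and in 100 of 111 mutant osteoblast-like cells (90.1%, 83.0 to 95.0), at 3592 CPM and 5622 UMIs. These levels are 32.6% and 53.0% of those in marked cells. Tenocyte-like cells had it above 0 in 95.4% of 262 control cells (92.1 to 97.6), at 2250 CPM, and in 61.0% of 41 mutant cells (44.5 to 75.8), at 860 CPM, where 3 cells held 40.1% of its UMIs. Thinned to 1000 UMIs a cell, the shares were 72.8% and 76.1% in osteoblast-like cells and 78.9% and 43.9% in tenocyte-like cells. With 4 markers required for the class, 90.5% of the 21 tenocyte-like cells left in the mutant library had Col11a1. Marrow stromal-like cells had it above 0 in 52.6% of 133 control cells and 28.7% of 101 mutant cells, at 452 and 87.4 CPM, and 3 control cells held 46.8% of those UMIs. Mural-like cells, the contractile cells around vessels, had it in 35.8% (24 of 67, control) and 14.3% (6 of 42, mutant). Col11a2 accompanied Col11a1 at a lower level, above 0 in 52.4% of control and 62.2% of mutant osteoblast-like cells, at 960 and 1320 CPM. The Col11a1 part of the pair was 79.0% and 73.1% there, and 85.5% and 86.7% in tenocyte-like cells.

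The collagen IX genes and Col2a1 were at low levels outside cartilage cells. Over the osteoblast-like, tenocyte-like, marrow stromal-like, fibroblast-like and mural-like cells of both libraries, the highest collagen IX share was 17.3% of cells, for Col9a3, and the highest level was 67.6 CPM, for Col9a2, both in control marrow stromal-like cells. The highest Col2a1 level was there too, at 898 CPM (33.1% of cells), where 3 cells held 89.3% of the UMIs, against 74.2 CPM in the mutant. Tenocyte-like cells had Col2a1 at 339 CPM (control) and 48.3 CPM (mutant), and fibroblast-like cells at 80.9 and 16.4 CPM. Of these classes, only the osteoblast-like had a higher Col2a1 level in the mutant library. Col2a1 in osteoblast-like cells was at 256 CPM (25.7% of control cells, 19.6 to 32.6) and 487 CPM (47.7% of mutant cells, 38.2 to 57.4), which are 0.581% and 1.54% of the levels in marked cells, and 3 cells held 39.7% and 39.8% of these UMIs. Mural-like cells, where cartilage collagens would not be looked for, had Col2a1 in 47.8% (control) and 42.9% (mutant), at 275 and 84.8 CPM and medians of 1992 and 4004 UMIs. Thinned to 1000 UMIs, Col2a1 was found in 26 of 184 osteoblast-like (14.1%) and 13 of 66 mural-like cells (19.7%, 10.9 to 31.3) of the control, and in 35 of 109 (32.1%, 23.5 to 41.7) and 3 of 40 (1.57 to 20.4%) of the mutant. The intervals of these classes thus overlapped for the control and did not for the mutant. Col27a1 was at 36.3 and 63.9 CPM in osteoblast-like cells, above 0 in 16.6% (11.6 to 22.7) and 25.2% (17.5 to 34.4) of cells. Col10a1 in osteoblast-like cells was found in 7 of 187 control cells (3.74%, 1.52 to 7.56) and 3 of 111 mutant cells, at 5.52 and 15.3 CPM, beside 8 of 400 control fibroblast-like cells (0.867 to 3.90%).

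**Figure D4:**
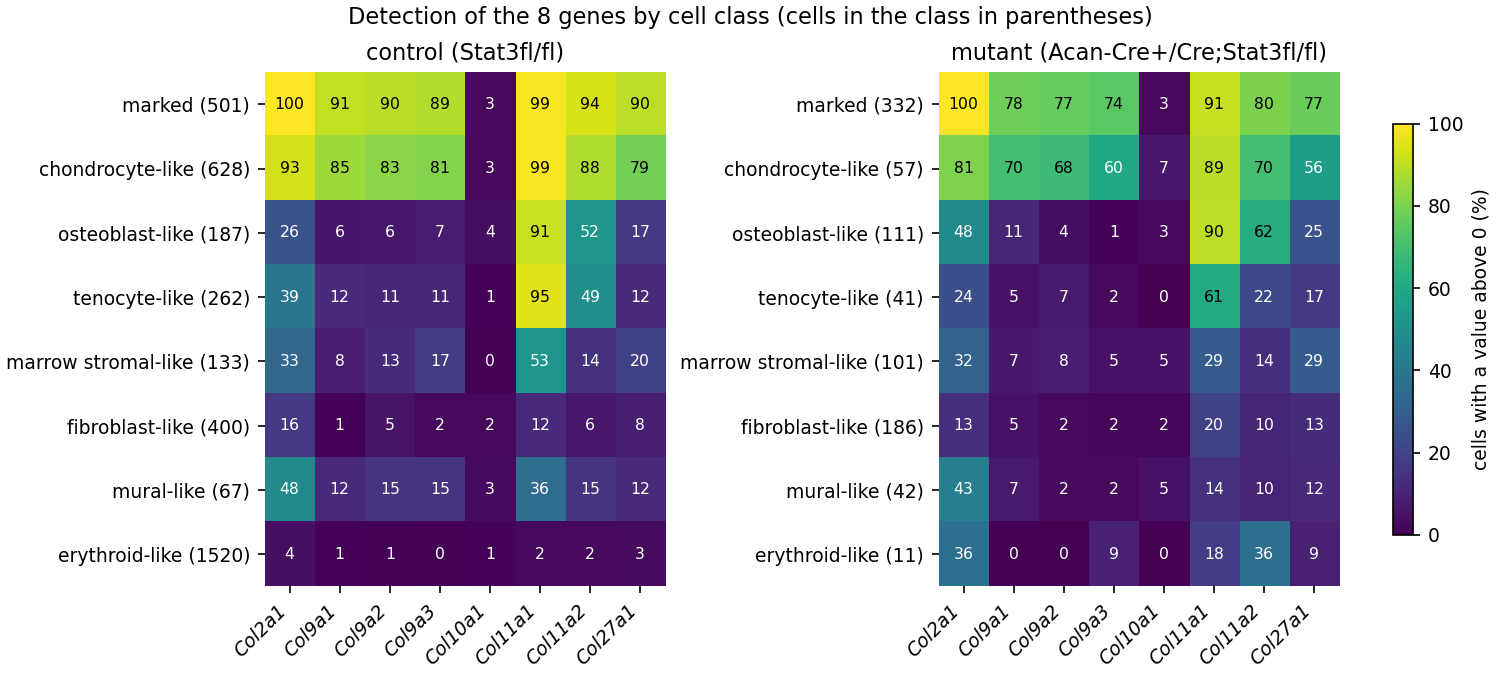
Percent of cells with a value above 0 for each gene (number and colour) in marked cells and, below them, in unmarked cells of each class, by library, with the number of cells in parentheses. Col11a1 stays above 90% in osteoblast-like cells of both libraries while the collagen IX genes do not exceed 10.8% there, and Col2a1 is at 100% in marked cells by selection.

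The fourth question was how many cells carried Col10a1, which lies on chromosome 10 from 34389981 to 34397085 (GRCm38, Gencode M21) inside Nt5dc1 on the opposite strand. Nt5dc1 itself was at 2.77 and 6.18 CPM in marked control and mutant cells. Col10a1 was above 0 in 93 of 4903 control cells (1.90%, 1.53 to 2.32) and 32 of 1340 mutant cells (2.39%, 1.64 to 3.35). Of these, 13 control cells (2.59% of marked cells, 1.39 to 4.40) and 9 mutant cells (2.71%, 1.25 to 5.08) were marked. At least 10 UMIs were present in 13 control cells (0.265%) and 7 mutant cells (0.522%), which held 93.6% and 99.4% of all Col10a1 UMIs of their libraries, and 3 and 2 of these cells were marked. The marked cells as a whole held 19.3% of the control and 54.2% of the mutant Col10a1 UMIs.

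Cell by cell, the highest value in the control library was 326 UMIs, in an unmarked chondrocyte-like cell of 2659 UMIs in all, and the 3 highest marked control cells had 145, 80.4 and 48.4 UMIs. The 4 highest mutant cells had 892, 613, 557 and 554 UMIs, of which the 892 and the 557 were in marked cells. The 3 highest marked cells held 97.0% of the marked control and 99.8% of the marked mutant Col10a1 UMIs, so the ratio of 2.35 rested on them. Without them the ratio was -0.88, at 2.82 and 1.08 CPM, and without cells above 5% mitochondrial counts it was 1.16, at 92.8 and 208 CPM, since the highest mutant cell had 5.80% mitochondrial counts. The share of marked cells with Col10a1 had overlapping counting intervals in the 2 libraries.

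The cells with at least 10 Col10a1 UMIs were described by other genes of maturation, with no test, as Col10a1 chose them. Acan was above 0 in 13 of the 13 control and 6 of the 7 mutant cells. Ibsp, the bone sialoprotein gene, was above 0 in 11 and 7 of them, and Spp1, the osteopontin gene, in 11 and 6. As pooled levels, Ibsp was at 2837 CPM (control) and 14907 CPM (mutant), and at 435 and 824 CPM in the 1085 control and 314 mutant chondrocyte-like cells with fewer Col10a1 UMIs. Spp1 was at 10346 and 33101 CPM, and at 170 and 189 CPM in those cells. The mutant Spp1 level leaned on 1 cell of 11433 UMIs in all, which held 1311 Spp1 UMIs, beside a median of 160 over the 7 cells. The sets differ in class, as 3 of the 13 control cells had no class and 1 of the 7 mutant cells was osteoblast-like, with 307 Ibsp UMIs of its 8114. Mmp13, a collagenase gene of terminal hypertrophic cells, was above 0 in 6 and 4 of the cells. Of the other hypertrophic genes listed, Alpl was above 0 in 6 and 5, Pth1r and Mef2c each in 6 and 4 and Panx3 in 6 and 3. Runx2 was above 0 in 5 and 3, Ihh in 2 and 2 and Sp7 in 1 and 2. Sox9 was at 0 in 8 of the 13 control and 3 of the 7 mutant cells, although Col2a1 was above 0 in 12 and 5 of them, and every marked cell has Sox9 above 0. A globin value above 0 was present in 7 of the 13 control cells and in 0 of the 7 mutant cells, and no marked cell has one.

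**Figure D5:**
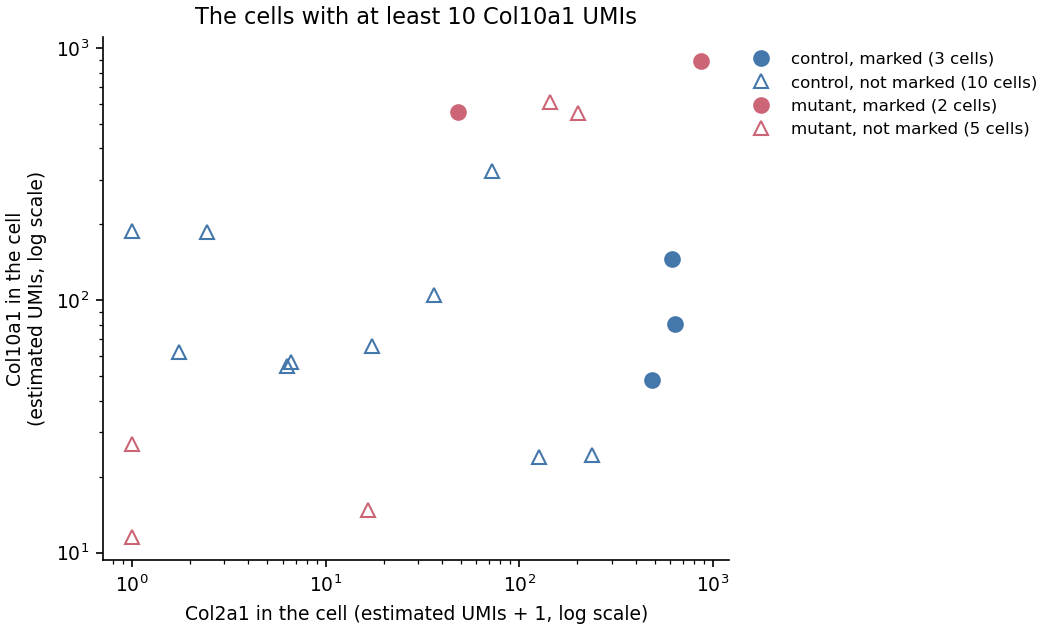
Col10a1 against Col2a1 (estimated UMIs, log axes, 1 added to Col2a1) in each of the 13 control and 7 mutant cells with at least 10 Col10a1 UMIs, filled where the authors marked the cell. The 4 mutant cells above 500 Col10a1 UMIs include 2 marked cells, and the marked control cells, at 48.4 to 145 UMIs, lie at high Col2a1.

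Other genes of the cartilage fibril were taken from lists chosen for their roles. Of 11 genes for proteins that bind these collagens, 7 were lower and 4 were higher in marked mutant cells, with a median log2 ratio of -0.43. Beside this, 62.7% of all genes tested were lower, at a median of -0.18. A decrease of at least 1.5-fold was found for 4 of them, where 21.3% of all genes passed. With median-of-ratios scaling it was found for 2, where 13.5% of all genes passed. The 4 were Acan (4837 to 1697 CPM, -1.51), Prelp (-1.06), Epyc (-0.71) and Fmod (-0.65). In Acan the mutant mice carry the Cre insertion. The matrilin genes Matn1, Matn3 and Matn4, whose products bridge collagen IX to other matrix, had ratios of 0.09, 0.17 and 0.05, and Comp, which binds collagens II and IX, had -0.18. Chad, for the collagen II-binding protein chondroadherin, was at 1026 and 1542 CPM (0.59).

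Of 15 genes for enzymes and chaperones that modify or crosslink collagen, 14 were lower and 1 was higher, with a median of -0.47, and with median-of-ratios scaling 12 were lower and 3 were higher, Serpinh1 and Adamts2 changing side. Over all genes tested, 62.7% were lower, and 50.8% with that scaling. The 4 lower by at least 1.5-fold (2 with that scaling), where 21.3% of all genes were (13.5% with that scaling), were Plod2 (1893 to 999 CPM, -0.92) and Plod1 (-0.62), for lysyl hydroxylases, Colgalt1 (-0.61), for a collagen galactosyltransferase, and Loxl2 (-0.87), for a crosslinking oxidase. Lox, the higher one, was at 31.7 and 69.5 CPM (1.11). Serpinh1, the collagen chaperone HSP47, was at 1521 and 1468 CPM (-0.05).

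Among the regulators, Sox9 was at 910 and 973 CPM (0.10), Sox5 at 307 and 176 CPM (-0.80) and Sox6 at 118.2 and 89.5 CPM (-0.40). Every marked cell has Sox9 above 0 by selection, so its level there depends on that choice. In unmarked chondrocyte-like cells, which the selection also shapes, Sox9 was at 708 and 158 CPM (-2.16). The hypertrophic list, of which 9 of 10 genes passed 10 CPM, had 4 higher and 5 lower, with a median of -0.19. Over all genes tested the median was -0.18 and 62.7% were lower. Spp1 (179 to 1177 CPM, 2.71) and Ibsp (324 to 937 CPM, 1.53) were the highest, and Panx3 (159 to 60.6 CPM, -1.38) was the lowest. In marked chondrocyte-like cells the median of the list was -0.50. There Spp1 had a ratio of 1.39 (157 to 413 CPM) and Ibsp of 1.61, while Alpl was at 0.14 (0.62 in all marked cells). Sp7 was at -0.01 (0.40) and Mef2c at -0.74 (-0.19), and 4 genes were lower by at least 1.5-fold, where 22.9% of all genes were. The 2 marked mutant cells with at least 10 Col10a1 UMIs, both chondrocyte-like, held 496 and 325 Spp1 UMIs and 468 and 10.6 Ibsp UMIs. The Spp1 and Ibsp ratios without these cells were not computed.

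The collagens of fibrous tissue served as a contrast. Their 8 genes had a median ratio of -0.15 in marked cells, with 3 higher and 5 lower (4 and 4 with median-of-ratios scaling). This was near the values over all genes tested, with a median of -0.18 and 62.7% lower (50.8% with that scaling). Col1a1 went from 2657 to 4357 CPM (0.71), and in marked chondrocyte-like cells it was at 1564 and 549 CPM (-1.51), the reverse direction. Col2a1 over the same change of cells went from -0.48 to -0.35. Osteoblast-like cells made up 2 of the marked control and 21 of the marked mutant cells, and with those cells alone left out the ratio was -0.39 for Col2a1, -0.52 for Col9a1 and -0.68 for Col11a1.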

How the data were processed

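Single-cell 3′ RNA libraries of knee cells were prepared with a droplet kit, 1 per genotype. The authors processed reads in Partek Flow, aligned them with STAR 2.7.3a to mm10, counted UMIs on a Gencode annotation and removed ambient RNA with SoupX. Each deposited table has cells as rows, with 9 columns that describe the cell and 32245 for genes, in which the value is log2(CPM + 1). The UMI total of a cell, as deposited, is an estimated count and need not be whole. The authors list the mitochondrial content of the cell in percent. A score for how many genes the cell expressed was deposited too and not used.

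Estimated UMIs were recovered from each value and the cell's total, and 74.9% of control and 97.3% of mutant values above 0 lay within 0.1 of a whole number, so no count test was used. They were summed over chosen cells per library and scaled to CPM, and the ratios use a pseudocount of 1 CPM. Values were rounded only for thinning (2000 UMIs for marked cells, 1000 for classes; seed 1) and for doublet calling. A class needed at least 3 of its fixed markers above 0 and more than any of the other 10 classes, and a subtype at least 2. Of the markers, only Ahsp was absent. Classes were shown from 40 cells up, erythroid-like cells excepted. Scrublet (scanpy 1.11.5, expected rate 0.05) marked 71 control and 3 mutant cells (0.224%), too few in the latter to rely on, and they were kept. Shares of cells have exact Clopper-Pearson 95% intervals (scipy 1.17.1). The ratio, share and thinning steps were tested on simulated data.

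The named genes were all 8 members, 5 regulators, the lists described with their counts and, for each member, the 3 genes of most similar pattern among those above 0 in at least 20% of marked cells of both libraries. The members and lists were chosen with earlier results of these data known. Alternatives covered the choice of cells, mitochondrial limit, doublets, weighting, top cells, depth, pseudocount, scaling, detection limit and gate. Coordinates are from Gencode M21 on GRCm38, the assembly of mm10; the authors quantified on release M25.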

Additional observations from a re-analysis of the deposited data

Results flagged for a closer look

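Col27a1 was flagged because it differed by more than 1.5-fold in opposite directions in a pair of cell classes, at 10 CPM or more. Its log2 ratio of mutant over control was 0.80 in osteoblast-like cells (36.3 to 63.9 CPM) and -0.61 in marked cells (1086 to 710.0 CPM). Cells of the osteoblast-like class with Col27a1 above 0 made up 16.6% (11.6 to 22.7, control) and 25.2% (17.5 to 34.4, mutant), and 3 cells held 28.4% of the mutant UMIs. Col2a1 (0.92) and Col9a1 (0.88) were also higher in mutant osteoblast-like cells and lower in marked cells, but Col2a1 differed by less than 1.5-fold in marked cells and Col9a1 was below 10 CPM in control osteoblast-like cells. Col27a1 was also higher in mutant fibroblast-like (0.44), tenocyte-like (0.39) and unclassed cells (0.60). Its ratio was 0.06 in marrow stromal-like, -0.27 in mural-like and -0.78 in unmarked chondrocyte-like cells. The difference between the classes was not tested, since there is 1 library per genotype.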

How the results depend on the processing

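Of 207 values under an alternative, 160 stayed within the tolerance (1.5-fold for ratios and counts, the 95% interval for shares of cells), 46 moved and 1 reversed. A change of sign counted as a reversal only where the main ratio reached 1.5-fold, a chain share difference exceeded 1 point or a detection difference exceeded its interval. Smaller values that changed sign within the tolerance, as for Col9a3, are among the 160. Over 12 alternatives the log2 ratio ran from -0.60 to -0.23 for Col2a1, -0.72 to -0.28 for Col9a1, -0.69 to -0.21 for Col9a2, -0.13 to 0.41 for Col9a3, -0.82 to -0.45 for Col11a1, -0.77 to -0.35 for Col11a2 and -0.68 to -0.33 for Col27a1, so the direction of Col9a3 alone among these depended on the choice. Median-of-ratios scaling raised each ratio by 0.16, which is less than the tolerance of 0.585 in log2, so it could move none of them past it. The Col10a1 ratio was -0.88 without the 3 highest cells, the reversal, and 1.16 at no more than 5% mitochondrial counts. The difference in the Col11a1 share of collagen XI, -0.81 points, was -1.33 with the gate free of collagen genes, -1.46 with cells weighted equally and 0.13 after thinning. The difference in detection in marked cells was -18.3 points for Col9a1, -21.5 for Col9a2 and -22.8 for Col27a1 after thinning, and -20.5 for Col9a2 and -12.1 for Col11a1 with at least 2 UMIs required. Cells with Col10a1 numbered 22 and 13 in the control with at least 2 and 10 UMIs, and 7 and 7 in the mutant library. For Col11a1 in osteoblast-like cells, 4 markers gave 96.4% in the control, at least 2 UMIs gave 78.6% and 78.4%, and thinning gave 72.8% and 76.1%. In tenocyte-like cells, at least 2 UMIs gave 80.2% and 43.9%, thinning 78.9% and 43.9%, and 4 markers 90.5% in the mutant library. Of 36 such values for Col2a1, Col9a1 and Col11a2 in these classes, 24 moved, most of them downward with depth or the UMI limit. The causes were not tested beyond what each alternative changes. No paired analysis was possible because each genotype has 1 library. Depth limits the shares: cells thinned to 2000 UMIs left out 34 control and 32 mutant marked cells.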

Other observations

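Chondrocyte-like cells without the authors' mark carried more Col10a1 per UMI than the marked cells in both libraries. The level was 282 CPM in 628 control cells and 5230 CPM in 57 mutant cells, against 92.1 and 475 CPM in the marked cells. Of the unmarked cells, 16 control and 4 mutant cells had Col10a1 above 0, and 3 cells held 75.4% and 98.8% of the UMIs. The mark itself shapes these sets, since 512 control but 3 mutant cells with Sox9 and Col2a1 above 0 were left unmarked, all with a globin value. The other members were at 64.3 to 79.6% of the marked level in the control and at 55.5 to 77.1% in the mutant library.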
